A study of Mus musculus with 12 samples.

Results

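Brainstem progenitors carrying ACVR1 R206H together with H3.1K27M were compared with progenitors carrying ACVR1 R206H alone, to ask what H3.1K27M changed in the RNA of cells that already held the mutant receptor. The members were the 6 RNAseq samples with these labels, 3 in each group, of 12 samples in the series, and they were described across 15482 genes. All 6 came from the brainstem of C57BL/6 pups of postnatal days 3 to 5 with the genotype Nestin TVA; p53 floxed. TVA is the receptor of the avian RCAS virus and was driven by the nestin promoter, so that infection was limited to cells using that promoter. The cells grew as neurospheres without serum in EGF and FGF2, and each group received RCAS vectors, for human ACVR1 R206H in both groups and for H3.1K27M in one of them. The labels list no Cre vector, so the floxed p53 gene was present in both groups as far as the labels say. They also do not say whether the 3 samples of a group came from separate cultures, litters or infections, so that p values measure the spread between these samples, which may be technical. Culture of origin and H3.1K27M cannot be told apart.

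ACVR1 is a type I receptor for bone morphogenetic proteins (BMPs), which passes its signal through SMAD proteins to targets such as the ID genes, and the R206H change makes the receptor overactive. H3.1K27M exchanges a lysine for a methionine in the tail of histone H3.1. The altered histone inhibits Polycomb repressive complex 2 (PRC2), which methylates that lysine and keeps developmental genes silent, and both mutations are found together in diffuse intrinsic pontine glioma, a brainstem tumor of children.

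With H3.1K27M, 4510 of the 15482 genes were higher and 4235 were lower by edgeR's quasi-likelihood test at an adjusted p under 0.05, which is 56.5% of the genes tested, with 29.1% in the higher and 27.4% in the lower direction. Most of these changes were small. With a log2 fold change of at least 1 as well, 1318 genes (8.51%) were higher and 463 (2.99%) were lower, 11.5% in all, and the median log2 fold change of all genes tested was -0.0018. Because so many genes passed, each gene group below is read against these shares. Libraries held 19315020 to 20652382 counts with ACVR1 R206H alone and 20828944 to 26456257 with H3.1K27M. Thinned to the smallest total, 22470 to 22797 genes would have had a count without H3.1K27M and 23587 to 24209 with it, so more genes were detected with H3.1K27M at equal depth. Log2 CPM of pairs of samples correlated across genes at a Pearson r of 0.994 to 0.995 within a group and of 0.956 to 0.966 between groups. CPM are counts relative to library size, on the usual parts-per-M scale, with TMM scaling over the 6 libraries.

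**Figure D1:**
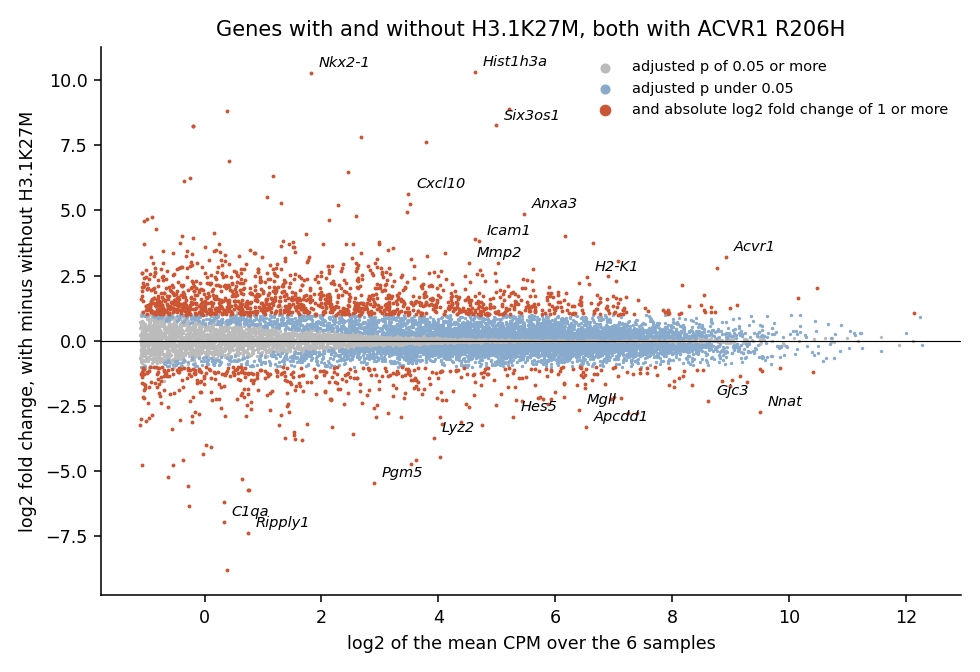
Each point is 1 of the 15482 genes tested, with its log2 mean CPM over the 6 samples on the x axis and its log2 fold change, with minus without H3.1K27M, on the y axis. The 1318 higher and 463 lower genes with a log2 fold change of at least 1 are in orange, and the higher ones lie mostly at low levels. Fold changes of genes near 0 in one group, such as Nkx2-1 and Hist1h3a, depend on the small count edgeR adds.

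Reads assigned to genes that the vectors carry differed between the groups. Reads assigned to Hist1h3a, one of the genes for histone H3.1, stood at 0, 0.0517 and 0.0484 CPM with ACVR1 R206H alone and at 51.00, 40.8 and 55.9 CPM with H3.1K27M. This is a ratio of 1485 with a 95% exact counting interval of 411 to 12268. The near-identical Hist1h3b went from 0.0501, 0.155 and 0.194 CPM to 19.4, 28.2 and 35.2 CPM, so the 2 groups did not overlap at either gene, and how reads were split between such copies is uncertain. Of 14 clustered H3 genes 7 were tested, 5 were higher and 2 lower. Reads assigned to Acvr1, the receptor itself, also differed. They measured 114, 81.9 and 85.8 CPM with ACVR1 R206H alone and 1007, 566 and 1068 CPM with H3.1K27M, a log2 fold change of 3.23 (SE 0.21, adjusted p = 1.3e-07 by edgeR's quasi-likelihood test), and every sample with H3.1K27M lay above every sample without. Both groups received ACVR1 R206H, and these counts do not separate the vector's human sequence from the mouse gene. Acvr1 reads therefore moved with H3.1K27M, and their part in the results on BMP targets was not tested.

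The cultures had markers of neural progenitors and of glia. Per kilobase of exon, Fabp7, a fatty acid binding protein of radial glia, stood at 1869 CPM without and 1849 CPM with H3.1K27M, and Olig2, a factor of the oligodendrocyte lineage, at 254 and 301 CPM. On the same scale the astrocyte marker Gfap stood at 244 and 109 CPM and Sox2 at 173 and 129 CPM. Nes, which encodes nestin, had 276, 235 and 253 CPM and 281, 266 and 271 CPM, overlapping groups that did not pass the test (log2 fold change 0.10, adjusted p = 0.15 by edgeR's test). Without ACVR1 R206H replicate 1 it passed, at 0.16. Pecam1, an endothelial marker, was at 0.351, 0.0517 and 0.145 CPM and 0.287, 0.266 and 0.302 CPM, too low to be tested. Of 11 endothelial markers 2 were tested, 1 higher and 1 lower, and their summed level was 9.10 to 13.6 CPM without and 6.95 to 9.48 CPM with H3.1K27M. Microglial transcripts moved with the group. C1qa, a complement gene of microglia, had 2.66, 2.58 and 2.23 CPM with ACVR1 R206H alone and 0, 0 and 0.0378 CPM with H3.1K27M, a ratio of 174 (95% exact counting interval 30.7 to 6915). Lyz2, a lysozyme of macrophages, fell from 24.4, 29.8 and 30.9 to 1.63, 2.57 and 2.15 CPM, with no overlap. Of 15 microglia and macrophage markers 9 were tested, 7 fell and 1, P2ry12, rose from 0.879–1.31 to 1.59–2.53 CPM, and the summed level of all 15 was 53.2 to 57.2 CPM without and 35.02 to 38.6 CPM with H3.1K27M. The complement genes C1qa, C1qb and C1qc were at or near 0 with H3.1K27M. These markers passed the filter mostly through the group where they are high. Of the 3 with at least 10 counts in every sample 1 rose and 1 fell, with a median log2 fold change of -0.16, and with no filter 12 of all 15 were lower and 1 was higher. Of 6 sex-linked genes 5 were tested. Xist, made from the silent X in female cells, fell from 849, 827 and 680.0 to 537, 663 and 516 CPM, and the Y-linked Ddx3y and Eif2s3y rose from 24.4–29.03 to 36.6–40.99 and from 33.5–39.9 to 48.6–49.9 CPM, so the mix of sexes and H3.1K27M cannot be told apart. In bulk RNA fewer cells of a type and less RNA per cell cannot be told apart.

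Genes of antigen presentation by MHC class I and of the interferon response rose. MHC class I molecules carry peptides to the cell surface for T cells, and interferon-stimulated genes are switched on when an interferon or an internal sensor of nucleic acids activates STAT and IRF factors. Among 49 interferon-stimulated genes 43 were tested, 35 rose (29.1% of all genes tested did) and 1 fell, and 23 rose by at least 1 on the log2 scale, with a median log2 fold change of 1.08 against -0.0018 over all genes tested and 8.51% of all genes rising that much. Among 26 genes of MHC class I and antigen processing 24 were tested, 21 rose and 1 fell, 12 rose by at least 1, and the median was 0.85. That median was 0.48 over the 21 with at least 10 counts in every sample, of which 18 rose, and 0.56 with no filter. Summed over their list, interferon-stimulated genes went from 523 to 554 CPM without H3.1K27M to 1102 to 1259 CPM with it.

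H2-K1, a classical class I heavy chain (ENSMUSG00000061232, chromosome 17, positions 33996017 to 34000347 of mm10), had 30.4, 27.5 and 29.1 CPM with ACVR1 R206H alone and 163, 149 and 162 CPM with H3.1K27M. The groups did not overlap, and the log2 fold change was 2.45 (SE 0.055, adjusted p = 1.1e-10 by edgeR's quasi-likelihood test). The other classical heavy chain, H2-D1 (chromosome 17, positions 35262730 to 35267499), rose from 36.7, 39.1 and 32.8 to 204, 205 and 203 CPM, a log2 fold change of 2.49 (SE 0.057, adjusted p = 1.1e-10 by edgeR's test). B2m, the light chain that both heavy chains need and the most abundant of these genes, rose from 170.0–183 to 439–463 CPM. Of the nonclassical heavy chains, H2-Q4 rose from 3.57–4.56 to 22.6–25.98 CPM, H2-Q6 from 0.259–0.436 to 5.93–6.61 and H2-Q7 from 0.879–2.06 to 8.10–12.2. These Q genes are close copies of each other, so that their separate values are uncertain. Psme2, a proteasome activator subunit, fell by 0.18 on the log2 scale, a call lost without ACVR1 R206H replicate 3 (-0.17) or H3.1K27M replicate 2 (-0.14) or 3 (-0.18). Light and heavy chains of class I rose in all 3 samples with H3.1K27M.

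Cxcl10, a chemokine that attracts T cells, was near 0 without H3.1K27M. It had 0.602, 0.414 and 0.291 CPM with ACVR1 R206H alone and 22.6, 20.6 and 22.8 CPM with H3.1K27M, a log2 fold change of 5.65 (SE 0.16, adjusted p = 4.0e-10 by edgeR's test). Ifit1, which binds viral RNA, rose from 2.36, 3.102 and 2.47 to 22.6, 22.8 and 30.5 CPM. Both genes had separate groups. The oligoadenylate synthetase-like genes rose as well, Oasl1 from 0, 0.155 and 0.0969 to 4.26, 3.01 and 5.02 CPM and Oasl2 from 1.79–2.71 to 18.5–24.9 CPM. Gbp2, a guanylate-binding protein and a typical interferon target, went the other way, from 7.27, 8.53 and 9.25 to 4.78, 5.05 and 5.74 CPM (log2 fold change -0.68, adjusted p = 6.3e-04 by edgeR's test), a call not made with all 12 samples in one fit. The interferon genes themselves were at the floor. Of 21 type I, II and III interferon genes 15 had no count in any of the 6 libraries, and no interferon gene had more than 1 count in a library. Of genes chosen after their values were seen, Cgas, a sensor of DNA in the cytoplasm, rose by 1.25 on the log2 scale, Tmem173, which encodes its partner STING, by 1.92, and the interferon regulatory factor Irf7 by 1.73, with adjusted p of 4.7e-05, 2.6e-05 and 3.4e-05 by edgeR's test.

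Promoters of these genes are shown because the interferon-stimulated genes rose together. The windows run from 250 bases before to 50 after a RefSeq start site of GRCm38.p6, written 5′ to 3′ along the gene's strand, and capitals mark GAAA, any 2 bases and GAAA again, or the reverse complement TTTC, any 2 bases and TTTC, the core of the interferon-stimulated response element, with overlapping matches merged. Cxcl10 and Ifit1 were named by their change and B2m was added after the values were seen.
Cxcl10 (chr5:92348840-92349139, minus strand): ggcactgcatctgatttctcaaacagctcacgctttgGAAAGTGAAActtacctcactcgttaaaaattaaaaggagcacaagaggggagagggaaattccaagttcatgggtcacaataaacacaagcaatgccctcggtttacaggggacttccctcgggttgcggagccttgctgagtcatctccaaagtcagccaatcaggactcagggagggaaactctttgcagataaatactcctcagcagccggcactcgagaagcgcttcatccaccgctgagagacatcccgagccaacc
Ifit1 (chr19:34640639-34640938, plus strand): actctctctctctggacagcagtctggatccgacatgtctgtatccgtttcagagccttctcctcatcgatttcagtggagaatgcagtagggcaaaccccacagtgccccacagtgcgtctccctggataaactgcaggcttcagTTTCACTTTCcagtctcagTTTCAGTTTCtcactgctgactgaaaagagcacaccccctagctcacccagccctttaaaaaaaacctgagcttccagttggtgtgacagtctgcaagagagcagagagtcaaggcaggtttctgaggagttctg
B2m (chr2:122147437-122147736, plus strand): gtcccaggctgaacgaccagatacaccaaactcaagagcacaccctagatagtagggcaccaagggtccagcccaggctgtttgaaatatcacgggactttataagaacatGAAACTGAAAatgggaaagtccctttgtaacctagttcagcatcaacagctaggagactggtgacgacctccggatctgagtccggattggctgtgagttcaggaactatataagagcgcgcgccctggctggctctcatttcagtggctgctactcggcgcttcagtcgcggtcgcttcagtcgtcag
The match began 213 bases before the start site in Cxcl10, 104 and 85 bases before it in Ifit1 and 139 bases before it in B2m. The windows of H2-K1 and H2-D1 held none, which says only that these letters are not there. Across the promoter table, 3.99% of 27025 genes had a match, and 3.48% of the 11221 of them that were tested. The share was 48.6% of the 37 interferon-stimulated genes in the table and 23.8% of the 21 genes of MHC class I and antigen processing. It was 6.16% of the 877 genes that rose by at least 1 on the log2 scale and 3.37% of the 297 that fell by as much. A match is a description of the sequence and not a measured site.

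**Figure D2:**
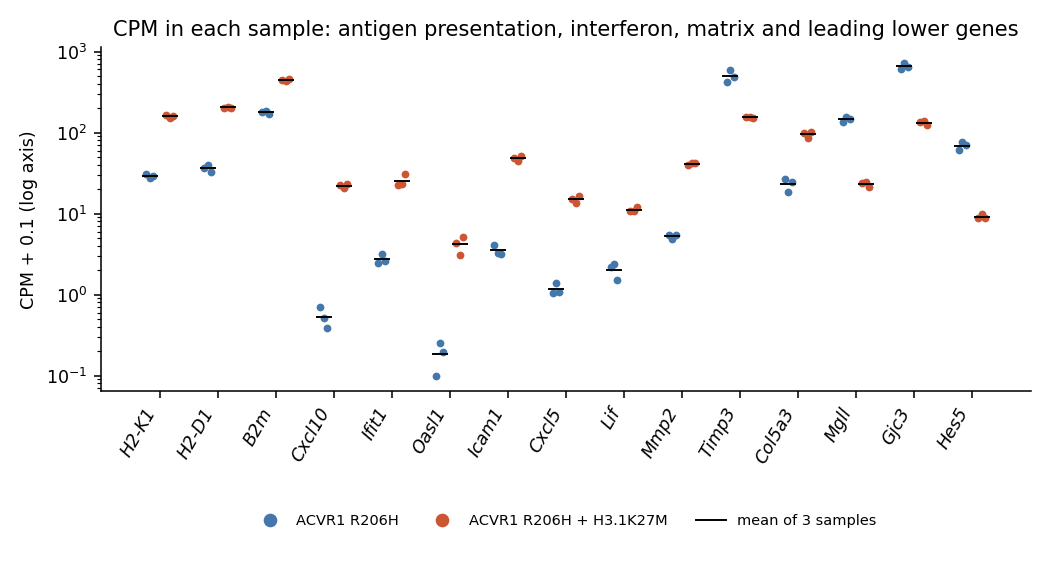
CPM plus 0.1 on a log axis for each of the 3 samples with ACVR1 R206H alone (blue) and the 3 with H3.1K27M (orange), with black bars at the group means. Groups do not overlap for the genes shown, as for 62.8% of all genes tested, and most were chosen among such genes. H2-K1 moves from 27.5–30.4 to 149–163 CPM and Mmp2 from 4.76–5.33 to 39.6–41.9, while Mgll, Gjc3, Hes5 and Timp3 are lower with H3.1K27M.

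Adhesion molecules and chemokines of the NF-kB pathway rose in part. Of 27 such genes 23 were tested, 12 rose, 7 of them by at least 1, 1 fell and 10 did not pass, with a median of 0.30 (0.15 over the 21 with at least 10 counts in every sample). Icam1, which binds leukocyte integrins, rose from 4.01, 3.21 and 3.099 to 49.04, 44.5 and 51.6 CPM with no overlap, a log2 fold change of 3.81 (SE 0.10, adjusted p = 2.9e-10 by edgeR's test). The neutrophil chemokines Cxcl5 and Cxcl1 rose from 0.953–1.29 to 13.2–16.3 and from 0–0.207 to 1.24–1.74 CPM, and Ccl2, which attracts monocytes, from 0.0484–0.362 to 1.15–1.55 CPM. Vcam1 fell by 0.29. In the IL-6 family and its JAK/STAT3 pathway, 5 of 17 tested genes rose and 5 fell (of 21 listed). The cytokine Lif rose from 2.11, 2.27 and 1.40 to 10.6, 10.7 and 11.8 CPM and Cntfr, the receptor of a related cytokine, from 34.7–42.6 to 75.4–78.7 CPM. These shares were near those of all genes, 29.1% and 27.4%. Higher genes numbered 3 without H3.1K27M replicate 1, 2 without H3.1K27M replicate 3, 3 with DESeq2 and 2 when the 12 samples were fitted together. Stat3, a transducer of the pathway, had 472, 464 and 475 and 437, 420.0 and 432 CPM (log2 fold change -0.13), Jak2 fell by 0.73, and the feedback inhibitors Socs3 and Socs2 fell by 0.62 and 0.73. Stat3 and Vcam1 did not pass when the 12 samples were fitted together.

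Proteases of the matrix, their inhibitors and collagens moved in both directions. Mmp2, a gelatinase that cuts basement membrane (ENSMUSG00000031740, chromosome 8, positions 92827291 to 92853420), had 5.32, 4.76 and 5.33 CPM with ACVR1 R206H alone and 39.6, 41.5 and 41.9 CPM with H3.1K27M. Every sample with H3.1K27M lay above the others, and the log2 fold change was 3.00 (SE 0.075, adjusted p = 2.1e-10 by edgeR's quasi-likelihood test). Adamts1, an aggrecan-cutting protease, rose from 26.6–31.8 to 85.5–88.6 CPM, Adam12 from 34.4–52.7 to 117–127 and Mmp3 from 0.630–0.724 to 1.33–4.93. The inhibitor Timp3 fell from 426, 587 and 478 to 156, 155 and 149.8 CPM (log2 fold change -1.69, SE 0.092), and Adamts9 and Adamts4 fell by 1.05 and 0.91. In all, 10 of 26 tested members rose and 10 fell (of 28), a median of 0.067.

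Collagens leaned upward, with 24 of 44 tested rising, 13 of them by at least 1, 8 falling and a median of 0.63 (of 47 listed). Col5a3, a fibrillar collagen, rose from 26.5, 18.4 and 24.3 to 97.9, 85.5 and 102 CPM, and Col1a2 from 0.310–0.678 to 3.29–3.32, Col22a1 from 0.920–1.504 to 7.18–8.20 and Col8a1 from 0.724–0.852 to 2.39–3.36. The abundant Col11a1 fell from 277, 245 and 279 to 114, 117 and 109.6 CPM and Col4a6, a basement membrane chain, from 179.5–199 to 90.8–98.4. The 4 collagens highest with ACVR1 R206H alone, Col4a5, Col11a1, Col4a6 and Col16a1, all fell, and the summed level of the list was 1753 to 1890 CPM without and 1779 to 1839 CPM with H3.1K27M. When the 12 samples were fitted together, 18 collagens were higher and 3 lower, and Col4a5 did not pass, at -0.17. Among mesenchymal genes and factors of the epithelial to mesenchymal transition, 10 of 21 tested rose and 6 fell (of 28). Lower genes numbered 3 without ACVR1 R206H replicate 1, 3 with DESeq2 and 2 when the 12 samples were fitted together. Snai2, a repressor of epithelial genes, rose from 0.451, 0.310 and 0.436 to 1.91, 2.35 and 3.25 CPM. Tnc, the matrix protein tenascin-C, rose from 121–169 to 324–342 CPM, L1cam, a neural adhesion molecule, from 1.79–3.36 to 4.03–6.46, the hyaluronan receptor Cd44 from 159–187 to 208–247 and vimentin (Vim) from 2078–2184 to 2422–2790. Adam12, Cd44 and Vim did not pass with all 12 samples in one fit. Zeb1 fell by 0.39 on the log2 scale. Fibroblast and pericyte markers moved with these genes. Of 15 markers 7 were tested and 6 rose, with 10 of all 15 higher when no filter was set, and their summed level was 90.1 to 111 CPM without and 139 to 156 CPM with H3.1K27M. Dcn and Lum, which mark fibroblasts, stayed under 1 CPM in the mean of either group. The part of these cells in the matrix results was not tested.

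Transcription factors that mark position along the brain moved in both directions, and the Hox genes, which mark the hindbrain and spinal cord, fell. Of 33 brain regional factors 25 were tested, 11 rose, 10 of them by at least 1, and 10 fell, 4 by at least 1. Of 39 Hox genes 9 were tested and all 9 fell, 8 by at least 1, with a median of -1.28. Of the 30 Hox genes too low to be tested, 8 had a higher and 9 a lower mean with H3.1K27M and 13 had no count. Summed over all 39, Hox genes stood at 28.9 to 31.4 CPM without and 12.04 to 13.5 CPM with H3.1K27M.

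Nkx2-1, a factor of the ventral forebrain and hypothalamus (ENSMUSG00000001496, chromosome 12, positions 56531958 to 56536908), had no count in the 3 samples with ACVR1 R206H alone and 7.56, 6.06 and 7.59 CPM with H3.1K27M. Against a floor of 3 counts per library this was at least 47.1-fold higher. Its neighbor on chromosome 12, the noncoding transcript Sfta3-ps, and its relative Nkx2-4 on chromosome 2 also went from no count to 1.34–2.27 and 2.04–3.06 CPM, at least 11.5-fold and 17.4-fold higher. Six3os1, the transcript opposite to Six3 on chromosome 17, had 0.201, 0.207 and 0.194 CPM without and 62.9, 58.7 and 67.5 CPM with H3.1K27M, a log2 fold change of 8.26 (SE 0.14) and, with 1.1e-11, the smallest adjusted p of edgeR's test in either direction. Six3 itself, a factor of the anterior forebrain and eye field, rose from 0.150, 0.207 and 0 to 11.2, 9.07 and 12.1 CPM. The annotated genes overlap, at positions 85600651 to 85618398 for Six3os1 and 85613608 to 85629302 for Six3, and the counting did not use strand, so their reads cannot be fully told apart.

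The forebrain and midbrain factor Otx1 rose from 2.41, 1.71 and 2.03 to 12.1, 12.4 and 13.1 CPM, and its relative Otx2 from 4.31–5.997 to 20.02–22.97, Lhx2 from 1.16–2.17 to 5.75–6.54 and Emx2 from 1.10–1.21 to 2.91–3.30, the last 3 chosen after their values were seen. Other regional factors fell. Lmx1a, which defines the roof plate, fell from 2.21, 3.77 and 2.66 to 0.431, 0.398 and 0.340 CPM, Nkx6-2 from 7.32–8.27 to 2.70–3.51 and Irx1 from 26.6–27.5 to 12.2–12.8. Hoxb3, a hindbrain Hox gene, fell from 1.35, 1.60 and 2.18 to 0.718, 0.354 and 0.264 CPM, a log2 fold change of -1.98 (SE 0.35, adjusted p = 4.8e-04 by edgeR's test). Hoxb4 fell by 1.51 and Hoxa5 by 1.31. Lmx1b, a midbrain and hindbrain factor, rose from 0.1003–0.259 to 0.664–1.17 CPM and Nkx2-2, a ventral factor along the whole axis, from 12.3–14.1 to 23.8–28.6. Six3, Hoxb3 and Lmx1a changed in the same direction with ACVR1 WT, with log2 fold changes of 4.71, -2.29 and -4.28 there (adjusted p = 2.0e-04, 0.0074 and 0.0078 by edgeR's test).

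**Figure D3:**
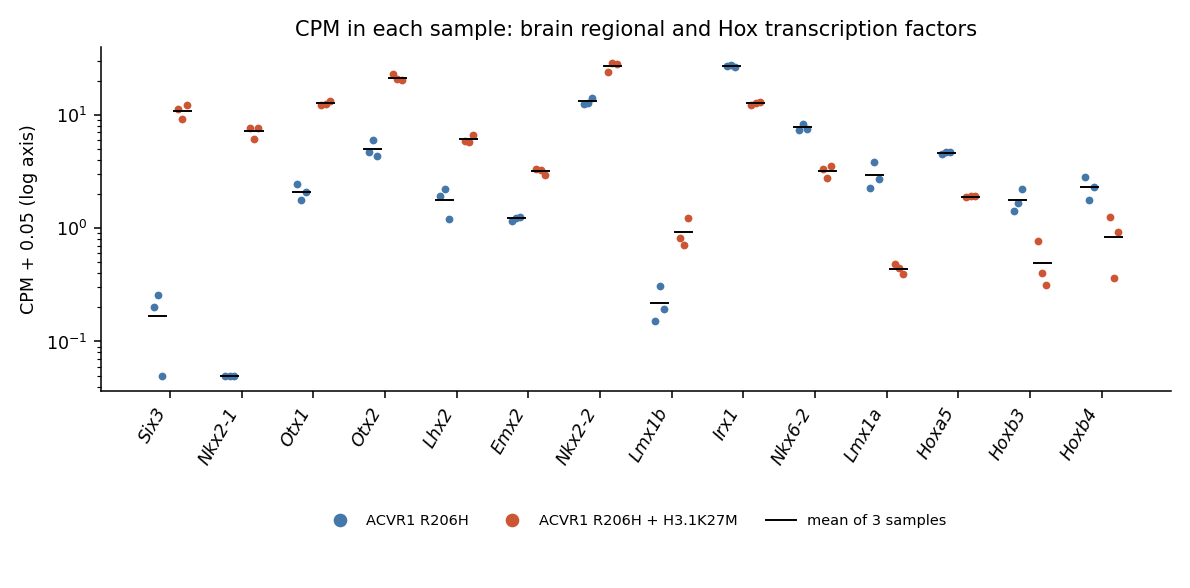
CPM plus 0.05 on a log axis in each sample for brain regional factors and Hox genes, with black bars at the group means. The 3 samples with H3.1K27M (orange) lie at 6.06–7.59 CPM for Nkx2-1 where the others (blue) have no count, and below the others for Lmx1a, Hoxb3 and Hoxa5.

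Targets of BMP signaling rose. Of 21 targets and feedback inhibitors 20 were tested, 14 rose, 10 of them by at least 1, and 1 fell, with a median of 0.98. The ID proteins block the bHLH factors that drive differentiation. Id1 rose from 40.4, 34.2 and 32.4 to 103, 97.1 and 119 CPM, a log2 fold change of 1.58 (SE 0.088, adjusted p = 3.7e-08 by edgeR's quasi-likelihood test). Id2 and Id3 rose from 251–263 to 514–612 and from 138–160.5 to 306–374 CPM, while Id4, with 42.8, 54.03 and 36.3 and 46.03, 43.4 and 54.6 CPM, had overlapping groups and did not pass (adjusted p = 0.43), though it did at 0.28 without ACVR1 R206H replicate 2. Atoh8, a bHLH gene downstream of BMP, rose from 5.92, 5.64 and 5.52 to 28.6, 25.5 and 33.7 CPM. The inhibitors Smad6, Nog and Bmper rose too, with the inhibitory SMAD gene Smad6 at 0.872–1.75 and 5.22–6.01 CPM, the BMP antagonist Nog at 3.05–3.81 and 11.1–17.8 CPM and Bmper at 11.6–13.2 and 40.8–42.1 CPM. Msx1, a homeobox target, fell by 0.35 on the log2 scale, a call not made by DESeq2, when the 12 samples were fitted together, after thinning (-0.32), or without ACVR1 R206H replicate 1 (-0.34) or 3 (-0.34) or H3.1K27M replicate 1 (-0.29) or 2 (-0.31).

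Among receptors and SMADs, 7 of 16 tested rose and 7 fell (of 17), with a median of -0.0073. Beside Acvr1, the signal-transducing Smad9 rose from 13.1–15.7 to 31.7–35.4 CPM and the receptor Acvr1c, at low counts, from 0.155–0.401 to 0.575–1.17. The receptors Bmpr1b and Tgfbr1 fell by 0.70 and 0.56, and Smad5 by 0.38. Of 19 ligands 15 were tested, 7 rose and 5 fell. Gdf15, a stress-induced ligand, rose from 0.552, 0.362 and 0.823 to 21.7, 19.7 and 25.3 CPM, a log2 fold change of 5.24 (SE 0.19). Gdf10 fell from 6.22, 10.03 and 8.43 to 0.574, 0.620 and 1.21 CPM, Bmp3 from 11.8–18.97 to 2.08–4.83 and the activin subunit Inhbb from 50.8–56.2 to 23.5–25.6.

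Genes of the p53 pathway mostly rose and mitosis genes mostly fell. Of 18 p53 pathway genes all 18 were tested, 15 rose, 6 of them by at least 1, and 3 fell, with a median of 0.89. Cdkn1a, which encodes the CDK inhibitor p21, rose from 254, 216 and 244 to 583, 542 and 602 CPM, a log2 fold change of 1.28 (SE 0.061, adjusted p = 1.2e-08 by edgeR's test). The apoptosis genes Perp and Pmaip1 rose from 5.95–7.07 to 33.2–41.2 and from 21.1–23.5 to 69.1–77.3 CPM, and the death receptor gene Tnfrsf10b from 21.4–25.6 to 71.8–81.9 CPM. Trp53 itself had 107, 101 and 115 CPM and 89.3, 81.9 and 88.6 CPM, a fall of 0.32 that did not pass when the 12 samples were fitted together, and the p53 targets Btg2 and Sesn1 fell by 0.94 and 0.75. Among CDK inhibitors 2 of 7 rose, Cdkn1a and Cdkn2b, and 3 fell, Cdkn1c, Cdkn1b and Cdkn2c. Cdkn2c did not pass when the 12 samples were fitted together.

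Of 46 mitosis genes 43 fell and 1, the securin Pttg1, rose, with a median of -0.51, and none fell by 1 or more. Cdc25c, the phosphatase that starts mitosis, fell from 31.8, 26.1 and 32.01 to 14.7, 15.9 and 15.9 CPM, the condensin subunit Ncapd2 from 194–237 to 115–126 and cyclin B2 (Ccnb2) from 35.5–48.8 to 23.95–26.1. Of 46 DNA replication genes 28 fell, among them Pole and Lig1 by 0.48 and 0.47, and 2, Tk1 and Gins2, rose, with a median of -0.20. With all 12 samples in one fit, which takes its spread from all groups, no mitosis gene passed as lower. No replication gene passed there in either direction, Tk1 and Gins2 included, although the medians of the mitosis and replication lists were -0.52 and -0.22. With ACVR1 WT the medians of the mitosis and replication lists were 0.23 and 0.35 and 0 and 0 genes passed as lower. These values rest on ACVR1 WT replicate 1. Without it, all 46 mitosis genes and 45 of the 46 replication genes rose with ACVR1 WT, with medians of 1.46 and 1.08, and the interaction, called for none of these genes with all samples, was called for 45 and 44, all toward lower values with ACVR1 R206H.

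Ccnd1 and Ccnd2, cyclins that start the cycle, rose, Ccnd1 from 327, 238 and 341 to 737, 694 and 720.0 CPM and Ccnd2 from 674, 438 and 591 to 2352, 2209 and 2329 CPM. Ccnd1 and Dusp6 did not pass with all 12 samples in one fit. Of 25 ERK feedback and immediate early genes 16 rose and 6 fell, a median of 0.40. Spry1, Spry4 and Dusp6, feedback inhibitors of ERK, rose, Spry1 from 49.2, 36.6 and 46.9 to 218, 214 and 225 CPM, Spry4 from 26.4–33.2 to 101–103 and Dusp6 from 51.8–71.8 to 188–206.3. Ier3, an early response gene that limits cell death, rose from 6.77–8.23 to 51.5–60.8 CPM. The immediate early factors Egr1 and Fosb fell from 127–154 to 43.4–70.4 and from 3.36–4.65 to 0.957–1.62 CPM.

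Markers of neural cell types gave both higher and lower genes. Counts of higher progenitor and astrocyte markers lay near the share of all genes tested that rose, 29.1%, while 27.4% of all genes fell. Of 17 neural progenitor markers 5 rose and 8 fell. Hes5, the main effector of Notch in progenitors, fell from 60.2, 75.8 and 69.3 to 8.76, 9.87 and 8.61 CPM with no overlap, a log2 fold change of -2.91 (SE 0.094, adjusted p = 8.6e-10 by edgeR's test). The progenitor factors Sox3 and Pax6 fell from 71.95–85.05 to 34.9–38.6 and from 63.6–75.1 to 37.8–40.2 CPM. Of 16 astrocyte markers 5 rose and 6 fell. Gfap, the astrocyte filament, fell from 859, 1131 and 1102 to 469, 425 and 481 CPM and the growth factor receptor Fgfr3 from 212–242 to 92.03–96.7, while the glutamate transporter Slc1a3 rose from 1252–1298 to 1945–1984 and the thyroid hormone transporter Slco1c1 from 0.201–0.484 to 7.46–9.52. When the 12 samples were fitted together 3 astrocyte markers rose and 2 fell, and Gfap did not pass, at -1.18.

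In the oligodendrocyte lineage 9 of 19 tested markers rose and 8 fell (of 20). With all 12 samples in one fit 1 rose and 3 fell, with Olig2, Sox10, Enpp6 and Gpr17 among those that did not pass. Olig2 and Sox10, factors of the lineage, rose from 610.2–659 to 753–767 and from 21.8–24.2 to 41.9–49.7 CPM, and Enpp6, a gene of cells about to make myelin, from 0.969–1.30 to 3.89–6.77. Gpr17, a receptor of committed precursors, fell from 68.4, 103 and 91.3 to 23.5, 19.8 and 15.9 CPM, and the myelin genes Mog and Mobp fell by 1.45 and 1.27 at levels under 3 CPM. Of 17 neuron markers 16 were tested, 9 rose and 4 fell. Map2, the dendritic microtubule protein, fell from 1115–1375 to 574–636 CPM and Neurog2, a proneural factor, from 0.872–1.24 to 0.133–0.239, while the growth cone protein Gap43 rose from 149–170.3 to 324–342. Ependymal and choroid plexus markers gave 2 higher and 1 lower of 7 tested (of 9). The lower one was Ttr, a carrier made by the choroid plexus, at 26.2, 30.6 and 14.00 CPM with ACVR1 R206H alone and 0.909, 1.59 and 0.491 CPM with H3.1K27M.

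Genes of the Notch pathway fell more often than they rose, and those of the Wnt pathway moved both ways. Of 23 tested Notch genes 12 fell, 7 of them by at least 1, and 7 rose (of 24), with a median of -0.26. Beside Hes5, the ligand-like Dll3 fell from 35.4–45.9 to 11.4–13.1 CPM, the Notch-induced feedback gene Nrarp from 8.04–8.12 to 2.46–3.41 and the glycosyltransferase Mfng from 4.86–5.23 to 0.869–2.21, while the ligands Jag1 and Jag2 rose from 36.6–41.8 to 82.2–93.8 and from 1.26–2.12 to 4.02–4.34 CPM. Of 39 tested Wnt genes 19 rose, 11 by at least 1, and 10 fell (of 50). Apcdd1, a Wnt inhibitor, fell from 132, 198 and 173 to 17.8, 17.6 and 15.4 CPM, a log2 fold change of -3.31 (SE 0.13, adjusted p = 3.4e-09 by edgeR's test). The nuclear effector Tcf7 rose from 3.002–3.31 to 12.4–14.9 CPM, the receptor Fzd10 from 6.62–8.52 to 23.2–25.98 and the secreted inhibitor Notum from 0.465–0.802 to 2.30–3.02, and the stem cell receptor Lgr5 fell from 26.9–27.3 to 11.6–13.1.

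Chromatin regulators changed little in size. Of 14 PRC2 and H3K27 demethylase genes 7 fell and 3 rose, none by 1 or more, with a median of -0.14. Ezh2, the methyltransferase of PRC2, fell from 101, 98.5 and 95.7 to 67.1, 66.9 and 65.1 CPM, a log2 fold change of -0.57 (SE 0.042, adjusted p = 3.9e-07 by edgeR's test), and its partner Jarid2 from 82.2–90.6 to 47.7–49.8. Ezh2 and Dnmt1 did not pass with all 12 samples in one fit, which put Ezh2 at -0.58. Of 20 PRC1 genes 7 fell, among them Cbx2 by 0.83, Pcgf2 by 0.81 and Bmi1 by 0.55, and 3 rose. Of 7 tested genes of DNA methylation (of 8) 5 fell, such as Dnmt1 by 0.48 (1 with all 12 samples in one fit), and 1, Dnmt3a, rose by 0.64.

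**Figure D4:**
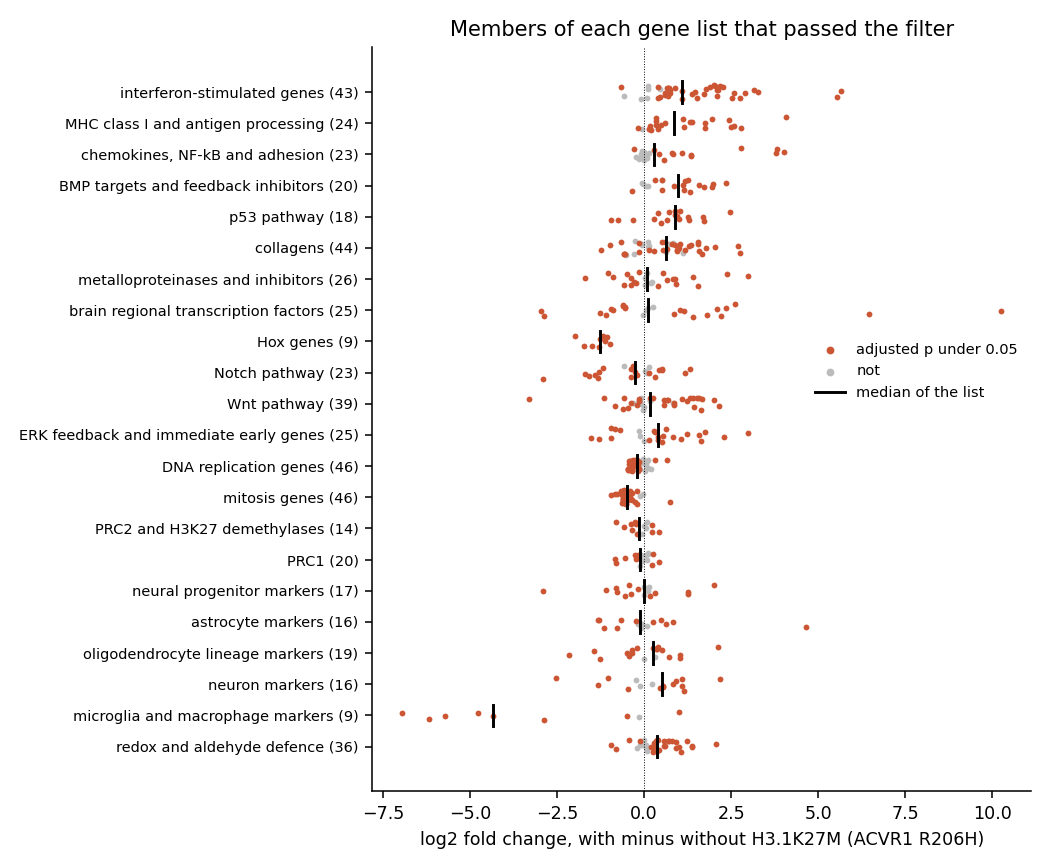
Log2 fold change, with minus without H3.1K27M, of each tested member of 22 gene lists (number tested in brackets), in orange where edgeR's adjusted p was under 0.05 and gray otherwise, with a black line at the median. Medians run from -4.35 for the 9 microglia markers that passed the filter to 1.08 for interferon-stimulated genes, and mitosis genes sit in a narrow band around -0.51. Values of members near 0 in one group, such as Nkx2-1 and C1qa, depend on the small count edgeR adds.

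The other genes with the strongest evidence fell into no single list. Among those that rose, Epas1, a hypoxia-inducible factor, went from 17.6, 18.5 and 17.2 to 71.9, 72.3 and 71.6 CPM, Lynx1, a modulator of nicotinic receptors, from 14.3–16.5 to 75.5–77.3, the phosphatase gene Ptp4a3 from 46.6–50.1 to 154–168, the annexin Anxa3 from 2.76, 2.64 and 3.44 to 87.1, 71.9 and 96.5 and the glutathione peroxidase Gpx3 from 24.5–27.3 to 90.7–92.03. Among those that fell, Mgll, which breaks down the endocannabinoid 2-arachidonoylglycerol, went from 136, 155 and 146 to 23.5, 24.7 and 21.2 CPM, a log2 fold change of -2.66 (SE 0.066, adjusted p = 2.1e-10 by edgeR's test). Gjc3, a glial connexin, fell from 606, 722 and 638 to 134, 139 and 125 CPM and Edil3, an integrin ligand, from 91.3–109.5 to 17.8–18.9. Emp1, Pde9a, Ampd3, Rap1gap and Epb41 fell by 2.23, 2.47, 2.23, 1.76 and 1.64 on the log2 scale. Pgm5, a relative of phosphoglucomutase, fell from 12.99, 16.1 and 14.7 to 0.383, 0.354 and 0.264 CPM, and Tmem252, which lies beside it on chromosome 19, from 0.752–2.52 to 0–0.0443. Ripply1, a repressor in somite formation, fell from 2.61, 4.14 and 3.24 to 0, 0 and 0.0378 CPM, a ratio of 232 (95% exact counting interval 41.2 to 9220). These genes were chosen among those whose groups do not overlap, as 62.8% of all genes tested did not.

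By gene class, processed pseudogenes and genes under 1 CPM had larger shares raised by at least 1 on the log2 scale than all genes together. Their shares raised at any size were not larger, at 26.9% and 22.1% against 29.1%. Of the 1537 genes under 1 CPM 18.4% rose and 6.96% fell by at least 1. Of genes with a mean of 1 to 10 CPM 32.9% rose at any size. Among 420 processed pseudogenes tested 18.6% rose by at least 1 on the log2 scale and 1.67% fell by as much, with a median of 0.39, against 8.51% and 2.99% over all genes. Protein-coding genes gave 8.32% and 2.75% of 13468, and long noncoding RNAs 7.99% and 5.90% of 1152. Reads of a pseudogene can come from its parent gene, so these values are uncertain. Of genes with a mean of 1 to 10 CPM 17.6% rose and 5.16% fell by at least 1, of those at 10 to 100 CPM 4.08% and 1.59%, and of those over 100 CPM 2.32% and 1.57%. By chromosome the share rising by at least 1 ran from 5.76% on chromosome 16 to 9.74% on chromosome 8 among the autosomes, and was 7.05% on the X.

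The same vector was added to cells with ACVR1 WT, and these 6 other samples share none with the comparison above. Its reads were fewer there. Scaled over all 12 libraries, Hist1h3a had 26.6, 16.2 and 12.2 CPM with ACVR1 WT and H3.1K27M, against 50.7, 39.5 and 55.2 with ACVR1 R206H and H3.1K27M. Hist1h3b had 5.64–8.55 and 19.3–34.8 CPM. The part of this difference in the comparison of backgrounds was not tested. With ACVR1 WT 3533 of 15385 genes passed (23%, with 12.6% higher and 10.4% lower, and 9.13% with a log2 fold change of at least 1), and 8115 of 15432 passed without ACVR1 WT replicate 1, which stood apart from its group. The count fell to 1445 without ACVR1 WT replicate 2, to between 1037 and 1189 without any one of the ACVR1 WT samples with H3.1K27M, and to 2023 with the replicate number as a block. Among 15146 genes tested in both, 1657 were called with a log2 fold change of at least 1 with ACVR1 R206H and 1344 with ACVR1 WT. Both lists held 1054 of these in the same direction, 63.6% of the first and 78.4% of the second. Without ACVR1 WT replicate 1 they shared 1214 genes, 72.7% of the first and 49.6% of the second. Of the ACVR1 R206H list 96.8% had the same sign with ACVR1 WT whatever the p, against 80.7% of all genes. Across genes, which are not independent, the log2 fold changes had a Pearson correlation of 0.871, and 0.786 without that replicate. H2-K1, Cxcl10 and Mmp2 had log2 fold changes of 2.00, 5.35 and 3.37 with ACVR1 WT (adjusted p = 0.0018, 9.4e-04 and 3.3e-04 by edgeR's test), beside 2.45, 5.65 and 3.00 with ACVR1 R206H. BMP targets had a median of 0.08 with ACVR1 WT, where 4 rose and 2 fell of 19. Without that replicate the median was -0.034, and 7 rose and 4 fell of 20.

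The interaction of H3.1K27M with the ACVR1 background, tested on all 12 samples, called 11 of 15445 genes, 0.0712%. It called 4112 without ACVR1 WT replicate 1, 17 without ACVR1 R206H with H3.1K27M replicate 1, 3 to 7 without any one of the other 10 samples, and 2 with the replicate block. Id2, Id3 and the kinase gene Stk32b had the smallest adjusted p. Id3 rose by 1.18 with ACVR1 R206H and fell by 1.14 with ACVR1 WT when H3.1K27M was added, and Id2 rose by 1.11 and fell by 0.64. Acvr1 reads rose in both backgrounds, by 3.23 with ACVR1 R206H and 2.20 with ACVR1 WT, and their part in these changes was not tested. Id1 measured 1.58 with ACVR1 R206H and -0.21 with ACVR1 WT, where it did not pass (adjusted p = 0.58 by edgeR's test).

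**Figure D5:**
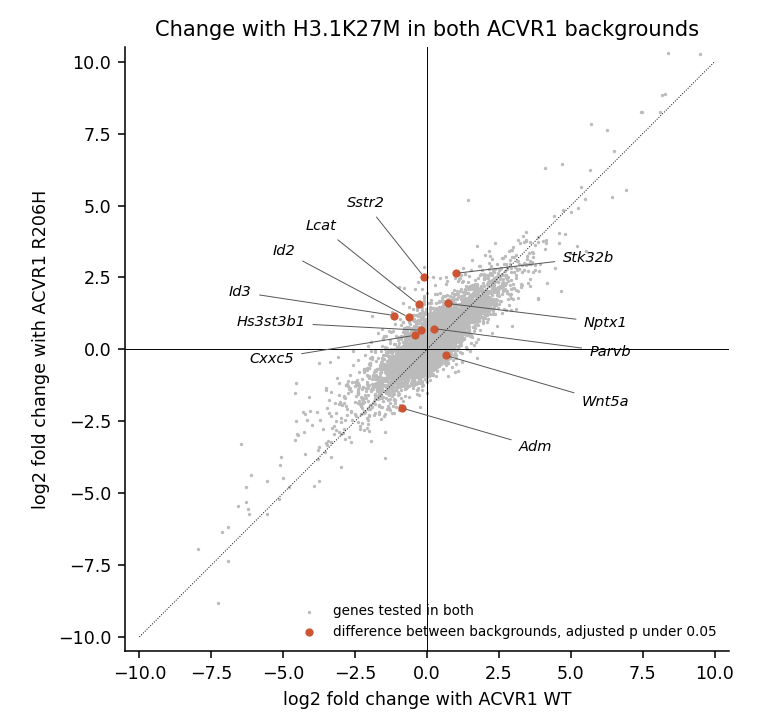
Log2 fold change with H3.1K27M in the ACVR1 WT background (x axis) and the ACVR1 R206H background (y axis) for each gene tested in both, with the line of equal change dotted. The 11 genes whose change differed between the backgrounds are in orange, and Id2 and Id3 lie at the upper left, higher with H3.1K27M in one background and lower in the other.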

How the data were processed

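RNA was measured by paired-end RNAseq of brainstem progenitor neurospheres in 12 samples, of which 6 form the comparison reported here. Per the labels and the study's methods, the authors aligned reads to mm10 with STAR 2.6.0b-1, and counted them per gene with HTSeq without strand, in union mode, with an alignment quality of at least 10 and without reads that were ambiguous or mapped to several places. Reads of near-identical genes are therefore lost or split. The deposited values are raw counts per Ensembl gene, whole numbers with no normalization, for 54532 genes, of which 54495 matched GENCODE M21 (GRCm38), the source of symbols and positions. Promoters came from RefSeq (GRCm38.p6).

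Genes whose normalized counts averaged 10 or more were fitted with edgeR 4.0.16 (TMM scaling, quasi-likelihood test, Benjamini-Hochberg adjustment at 0.05) in R 4.3.3 on the 3 and 3 samples. The same fit was made with ACVR1 WT, and the difference between backgrounds was an interaction on all 12. Alternatives were DESeq2 1.42.0, which the study's methods use, median-of-ratios scaling, other filters, a replicate block, all 12 samples in one fit, thinning to the smallest total and leaving out each sample. An exact permutation test of 3 against 3 samples cannot go below 0.1, so none was used. Counting intervals are exact at 95% and, like the floor of 3 counts, cover counting error only.

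Members and gene lists were chosen with earlier results of these data known. Named genes were the 12 with the smallest adjusted p and the 8 with the largest change in each direction among those without overlap between groups, identifiers of the Gm and Rik kind left out, up to 4 of each list in each direction with defining members that did not pass, and a short preset list. Others are said to be chosen after their values were seen. A few members of the lists are not reported here by name.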

Additional observations from a re-analysis of the deposited data

Results flagged for a closer look

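Changes with H3.1K27M that differed between the ACVR1 backgrounds were found in 11 genes by edgeR's quasi-likelihood test of the interaction on all 12 samples, where 1183 genes had an unadjusted p under 0.05. Each difference below is the log2 fold change with ACVR1 R206H minus that with ACVR1 WT.

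Id2 and Id3, which encode inhibitors of differentiation factors, moved in opposite directions. Id3 differed by 2.31 (adjusted p = 0.0059), with 139–161 CPM rising to 296–370 CPM in the ACVR1 R206H samples and 71.4–122 CPM falling to 39.1–46.4 CPM in the ACVR1 WT samples, scaled over all 12 libraries. Id2 differed by 1.75 (adjusted p = 0.0059), rising by 1.11 with ACVR1 R206H and falling by 0.64 with ACVR1 WT. Cxxc5, a BMP-induced zinc finger gene, differed by 0.92, with 0.49 and -0.43, and Wnt5a, a Wnt ligand, by -0.85, with -0.21 and 0.64. The fall of Wnt5a with ACVR1 R206H did not pass without ACVR1 R206H replicate 1 (-0.15) or H3.1K27M replicate 1 (-0.20) or 3 (-0.16).

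Other genes changed more with ACVR1 R206H. Stk32b, a kinase gene, differed by 1.65 (2.64 against 0.99), the pentraxin Nptx1 by 0.88 (1.59 against 0.72), the adhesion adaptor Parvb by 0.49 (0.72 against 0.24), and the peptide hormone Adm by -1.18 (-2.04 against -0.86). Sstr2, a somatostatin receptor, differed by 2.61, Lcat, which esterifies cholesterol, by 1.86 and Hs3st3b1, a heparan sulfate sulfotransferase, by 0.88. The changes of these 3 genes with ACVR1 WT were -0.097, -0.29 and -0.21 and did not pass.

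Adjusted p of the 11 ran from 0.0059 to 0.048. With the replicate number as a block, Id3 (adjusted p = 0.029) and Id2 (adjusted p = 0.028) passed, and the other 9 did not. Without ACVR1 WT replicate 1, whose group had a biological coefficient of variation of 0.275 against 0.0453 to 0.0594 in the other groups, all 11 kept their sign, with adjusted p of 5.2e-06 to 5.7e-04 by edgeR's test. That setting called 4112 of 15459 genes, and the 11 were chosen from the same libraries, so it is no separate test of them. Leaving out any one of 10 other samples left only 3 to 7 genes called in all, and 17 were called without ACVR1 R206H with H3.1K27M replicate 1. Acvr1 reads, at 46–53 CPM with ACVR1 WT alone and 163–368 CPM after H3.1K27M, differed between groups in the same libraries, and their part was not tested. Hist1h3a reads with H3.1K27M also differed between the backgrounds, at 12.2–26.6 CPM with ACVR1 WT and 39.5–55.2 CPM with ACVR1 R206H. The part of these reads was not tested either.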

How the results depend on the processing

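With ACVR1 R206H, 8745 genes passed, and 1781 when a log2 fold change of at least 1 was also required. Other settings gave 5963 (all 12 samples in one fit) to 9449 (no filter) genes, among them 7737 with DESeq2, 7727 of them shared, and 7589 to 8350 with one sample left out. With all 12 samples in one fit the counts of higher and lower genes were 3219 and 2744. With ACVR1 WT, 3533 genes passed. With the replicate number as a block edgeR called 2023, in one fit with all 12 samples 6335 passed, and leaving out one sample gave 1037 to 8115. That range ran from 8115 without ACVR1 WT replicate 1 and 1445 without replicate 2 to 1189, 1050 and 1037 without ACVR1 WT with H3.1K27M replicates 1, 2 and 3. The difference between backgrounds was called for 11 genes. It gave 97 with DESeq2, 18 with no filter, 2 with edgeR and the replicate block, 85 with DESeq2 and the block, and 3 to 4112 with one sample left out, where 4112 is the value without ACVR1 WT replicate 1. The deviations of samples with the same replicate number correlated at -0.0119, 0.00627 and 0.0658, and those of samples with different numbers at -0.0449 to 0.0394. Values this small cannot show whether the replicate numbers pair the samples. With the block, edgeR called 8606 genes with ACVR1 R206H and DESeq2 called 6292, which held 71.9% of the main calls. Of 208 genes named in the text, 29 no longer passed with all 12 samples in one fit (Adam12, Ccnb2, Ccnd1, Cd44, Cdc25c, Cdkn2c, Col4a5, Dnmt1, Dusp6, Enpp6, Ezh2, Gbp2, Gfap, Gins2, Gpr17, Lig1, Msx1, Mvd, Ncapd2, Olig2, Pole, Sox10, Stat3, Tk1, Tnr, Trp53, Vcam1, Vim, Wnt5a). With one sample left out, Fabp7 ran from -0.045 to 0.016, the latter without ACVR1 R206H replicate 2, and Id4 from -0.010 without replicate 3 to 0.28 without replicate 2, where it passed. The replicate block cost edgeR no call of a named gene and cost DESeq2 3 (Gins2, Psme2 and Stat3). The 12-sample fit also lowered counts of several lists by over 1.5 times, to 3 lower collagens, 2 higher and 5 lower neural progenitor markers, 5 higher neuron markers, 10 higher ERK genes, 4 higher Notch genes, 6 lower Wnt genes, 4 lower PRC1 genes, 3 lower BMP ligands, 7 lower glutamate and GABA receptors, 9 lower guidance genes, 4 lower imprinted genes and 8 higher and 5 lower hypoxia genes. At least 10 counts in every sample left 5 lower Hox genes, 7 higher regional factors and 2 higher H3 genes, since fewer members were tested. The replicate block with DESeq2 left 2 higher and 3 lower IL-6 and JAK/STAT3 genes, 6 lower metalloproteinases and inhibitors, 3 lower mesenchymal genes and 3 higher neural progenitor markers. This setting changes the tool as well as the block. DESeq2 without the block already gave 3 lower mesenchymal genes and 3 higher IL-6 and JAK/STAT3 genes. The cause of the other shifts was not tested. With no filter, 2464 genes had a log2 fold change of at least 1, against 1781, so scarcer transcripts also changed.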

Other observations

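Genes of growth factor signaling and of axon guidance rose more often than they fell. Of 29 receptor tyrosine kinases and ligands of glioma 26 were tested, 15 rose and 8 fell, with a median log2 fold change of 0.28 (10 and 4 when the 12 samples were fitted together). The ephrin receptor Epha2 rose from 2.999–3.58 to 15.8–18.1 CPM, the FGF receptor Fgfr4 from 0.0501–0.310 to 1.77–2.30 and the PDGF receptor ligand Pdgfc from 9.77–10.9 to 25.1–30.7, while the neuregulin receptor Erbb4 fell from 162, 155 and 125 to 49.9, 59.8 and 44.3 CPM. Of 65 guidance genes 63 were tested, 34 rose, 13 of them by at least 1, and 16 fell. The Robo ligand Slit3 rose from 0.752, 0.259 and 0.630 to 3.97, 4.60 and 5.33 CPM and Ntn4, a laminin-like netrin, from 10.9–12.2 to 38.2–41.9. The semaphorin receptor Plxnb3 fell from 54.8, 62.04 and 53.5 to 16.1, 17.8 and 15.7 CPM and the netrin receptor Dcc from 18.2–24.1 to 8.31–10.4. Glutamate and GABA receptor genes gave 13 higher and 11 lower of 29 tested (of 35). Both subunits of the GABA-B receptor fell, Gabbr1 from 366, 420.0 and 377 to 133, 139 and 127 CPM (log2 fold change -1.54, adjusted p = 2.0e-09 by edgeR's test) and Gabbr2 from 36.1, 64.1 and 45.96 to 4.45, 5.58 and 5.21 CPM. The GABA-A subunit Gabrb2 rose from 1.89–2.17 to 6.32–7.29 CPM and the NMDA receptor subunit Grin2a from 0.201–0.775 to 1.63–1.99. Of 15 lecticans, tenascins and link proteins 11 were tested, 6 rose and 3 fell. The proteoglycan versican (Vcan) fell from 653, 648 and 582 to 329.5, 365 and 314 CPM and tenascin-R (Tnr) by 0.69 on the log2 scale, and the link protein Hapln1 rose from 0–0.242 to 1.24–1.93 CPM. Tnr did not pass when the 12 samples were fitted together.

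Genes of redox defence rose, with 25 of 36 tested higher and 4 lower (of 39) and a median of 0.36. Thioredoxin (Txn1) rose from 325, 276 and 327 to 791, 812 and 791 CPM, the glutathione transferase Gstm1 from 192–214 to 507–538 and Gclc, which starts glutathione synthesis, from 61.2–62.9 to 144–151. The peroxiredoxin Prdx6 fell from 358–448 to 219–230.0 CPM and the retinaldehyde dehydrogenase Aldh1a1 by 0.95. Cholesterol synthesis leaned lower, with 13 of 23 tested lower and 2 higher (of 24). Fdft1, the squalene synthase, fell by 0.61 on the log2 scale and Mvd by 0.39. A single fit of the 12 samples called 6 of these genes lower and 1 higher. Hypoxia and glycolysis genes moved both ways, 13 up and 8 down of 27 tested (of 29). The oxygen sensor Egln3 rose from 11.1–13.3 to 32.3–36.4 CPM and the peptide hormone Adm fell from 19.6–23.2 to 4.64–5.58. Of 39 imprinted genes 32 were tested, 10 rose and 7 fell, beside 29.1% and 27.4% of all genes. Nnat, a membrane proteolipid of developing brain, fell from 1065, 1511 and 1185 to 195, 196 and 179 CPM, a log2 fold change of -2.72 (SE 0.11, adjusted p = 3.3e-09 by edgeR's test), and Dlk1, a Notch-like growth inhibitor, from 20.5–22.9 to 6.75–6.99. The adaptor Grb10 rose from 6.68–10.4 to 20.5–23.9 CPM and the noncoding RNA Meg3 from 11.03–19.4 to 29.4–36.2.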
